A study of Mus musculus with 9 samples.

Results

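Glioma stem cells grown from mouse optic gliomas were compared with wild-type neural stem cells (NSC) of the third ventricle, array by array and over every gene measured. The comparison used 6 of the 9 arrays of the study, 3 of each kind. The members were chosen by their labels alone, as all arrays of glioma stem cells and all arrays of third-ventricle NSC that had received the control virus. All mice were C57BL/6. The wild-type NSC came from Nf1flox/flox pups at postnatal day 1 and were transduced with a LacZ virus, so both of their Nf1 alleles were floxed but intact. The glioma stem cells came from optic gliomas on the optic nerve of Nf1+/-GFAP CKO mice at 3 months of age, and the labels name no virus for them. In these mice 1 Nf1 allele is inactive in every cell and the other is deleted under control of the GFAP promoter, so the cells of the mouse outside the deleted lineage are Nf1+/-. The remaining 3 arrays held Nf1-null NSC, made from the same kind of pups with a Cre virus, and entered the model through the estimate of the spread. All cultures grew in low-attachment dishes in DMEM/Neurobasal medium with N2 and B27 supplements, FGF at 20 ng/ml and EGF at 20 ng/ml. The tumour origin, the age of the mouse, the tissue, the Nf1 genotype and the virus all changed together between the groups, so their parts in a difference cannot be told apart. The labels give the NSC as independent cultures. They leave unstated whether each array of glioma stem cells stands for a tumour or mouse of its own, so p-values may measure technical spread there.

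Neurofibromin, the product of Nf1, is a GTPase-activating protein that switches Ras off. Loss of both NF1 copies in glial precursors gives rise to low-grade astrocytic gliomas of the optic pathway in neurofibromatosis type 1. Active Ras signals through RAF, MEK and ERK, and ERK in turn raises transcription of genes that limit its own activity, among them the Sprouty and Dusp families, and of cyclin D1. Neural stem cells of the third ventricle line the hypothalamus, share many transcripts with radial glia and astrocytes, and can give rise to astrocytes, oligodendrocytes and neurons.

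RNA was hybridised to Affymetrix Mouse Genome 430 2.0 arrays, and values are linear probe set signals as deposited. Each array was scaled to the same trimmed mean, so a difference in total RNA between the groups is not in these values. Median signals lay between 267.4 and 287.4 on the 6 arrays, and the ratio of 3' to 5' Actb signal was 1.87 to 1.88 in wild-type NSC and 1.73 to 1.85 in glioma stem cells. Over the 9097 brighter genes, on the log2(signal + 1) scale, glioma stem cell arrays 2 and 3 correlated at 0.989. Array 1 correlated with them at 0.950 and 0.943, and the correlations that follow are over the same genes. Wild-type arrays correlated with each other at 0.951 to 0.964, and with glioma stem cell arrays at 0.802 to 0.907, highest for wild-type array 1 with glioma stem cell array 1. Libraries were uneven in sex-linked genes: Xist was 588 on wild-type array 3 and 36329.6 or more on the other 5 arrays, and the Y-linked Uty was 51.4 on glioma stem cell array 2 against 458 to 2740.1 on the other 5. Xist, Eif2s3y, Kdm5d and Uty did not pass the test between the groups, and the part of sex in other differences was not tested.

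Of 18193 genes, 1658 passed the test, 631 of them higher in glioma stem cells and 1027 lower. A gene passed, or was called, at a Benjamini-Hochberg adjusted p under 0.05 in limma on log2(signal + 1). This is 9.11% of the genes tested, with 3.47% called higher and 5.65% called lower. All 1658 called genes had 3 glioma stem cell values that did not overlap the 3 wild-type values. The same held for 6353 genes, or 34.9%, of all genes tested, so it sets a called gene apart less than its adjusted p does. Among called genes the median absolute log2 difference was 1.5, 235 rose by at least 4-fold and 311 fell by at least 4-fold. Called genes were higher in 38.1% of cases, but in 54.6% when the arrays were shifted to one median, which moved the median log2 difference over all genes from -0.09 to 0.05, and in 46.0% after quantile normalization. With the genes cut into 4 equal groups by brightness, calls were made in 2.44% of the dimmest group, where replicates spread most, 9.15% and 13.7% of the 2 middle groups, from dim to bright, and 11.1% of the brightest.

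The number of called genes depended on which array was left out. It was 902, 245 and 490 without wild-type arrays 1, 2 and 3, and 1774, 239 and 311 without glioma stem cell arrays 1, 2 and 3. Wild-type array 1 and glioma stem cell array 1 were the members of their groups nearest to the other group. Of the 173 genes chosen by rule for naming, 35 kept their side of the threshold under all 19 alternatives and 9 more under the 17 or 18 that tested them, and 0 changed direction. Leaving out wild-type array 2 changed the call of 112 of these genes and leaving out glioma stem cell array 2 that of 115, while fitting the 6 arrays alone changed 38. A block for the replicate number changed 26 and an ordinary linear model 28. Calls lost with the 6 arrays alone, the block or the ordinary model are not listed by gene, apart from Nf1 under the block. Calls that ended when a single array was left out of the fit are given beside the genes, with the log2 difference found without it. Errors after ± are moderated standard errors of the log2 difference, and glioma arrays are those of the glioma stem cells.

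**Figure D1:**
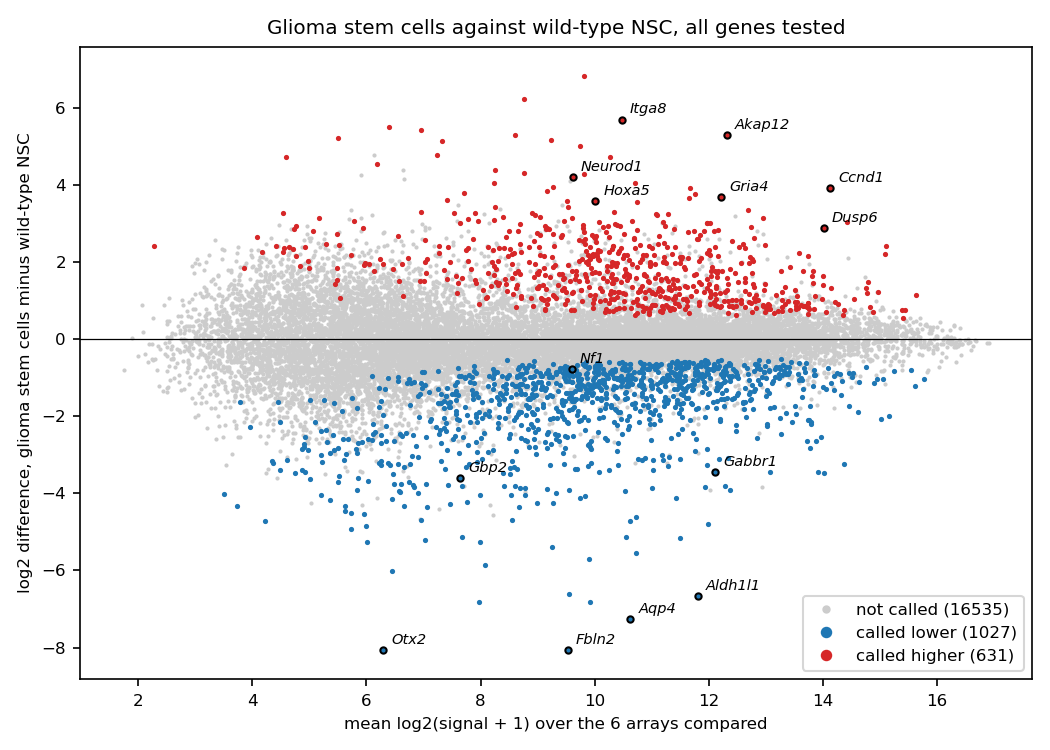
The log2 difference of each of the 18193 genes (glioma stem cells minus wild-type NSC, y axis) against its mean log2(signal + 1) over the 6 arrays (x axis), with 631 genes called higher in red, 1027 called lower in blue and the others in grey. Of the genes marked by name, Otx2 and Fbln2 lie farthest below 0 and Itga8 and Akap12 farthest above, while Nf1 lies close to 0.

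Nf1 itself was lower in the glioma stem cells by its brightest probe set. Its signal was 1139.5, 919.5 and 999.9 on the wild-type arrays and 623, 600.1 and 549 on the glioma stem cell arrays. The groups did not overlap, and the log2 difference was -0.78 ± 0.19 (adjusted p = 0.0441), a 1.72-fold lower mean. In Nf1-null NSC it was 430.3, 646 and 577, in the same range as in the glioma stem cells. Where on the transcript this probe set lies relative to the deleted exons was not examined, and the value is the RNA level of Nf1 as that probe set sees it. Nf1, at -0.70 to -0.85, was not called without wild-type array 1, 2 or 3, Nf1-null array 3 or glioma array 1, 2 or 3. Other processing ended the call of Nf1, at -0.66 after quantile normalization and -0.64 with the arrays shifted to one median. The mean of its 3 probe sets gave -0.66 (adjusted p = 0.417), and 2 of the 3 had a difference below 0. A block for the replicate number gave -0.78 (adjusted p = 0.0782).

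The 15 largest falls included Fbln2, Otx2, Aqp4, Cybrd1 and Aldh1l1. Aldh1l1, which codes for a folate enzyme used as a marker of astrocytes, read 32418, 33106 and 43186 on the wild-type arrays and 660.4, 283 and 239.5 on the glioma stem cell arrays. The highest glioma stem cell value was far below the lowest wild-type value, and the log2 difference was -6.66 ± 0.39 (adjusted p = 0.00137). Aqp4, the water channel of astrocyte end-feet, stood at 21585, 15426 and 22502 on the wild-type arrays and 258, 118 and 66.2 on the glioma stem cell arrays, a log2 difference of -7.26 ± 0.66 (adjusted p = 0.00445). Otx2, a homeobox factor that patterns forebrain and midbrain, had signals of 637, 1837 and 1766 on the wild-type arrays and 6.9, 2.5 and 2.9 on the glioma stem cell arrays. The 3 glioma stem cell values are at the bottom of the array's range, so its log2 difference of -8.07 ± 0.57 (adjusted p = 0.00294) depends on the pseudocount. It became -6.01 with a pseudocount of 16. Fbln2, an extracellular matrix protein, was at 16403, 7658 and 14074 on the wild-type arrays and 290.2, 14.1 and 19.6 on the glioma stem cell arrays, and its difference was -8.07 ± 1.02 (adjusted p = 0.00935). Cybrd1, a ferric reductase, was at 14725, 6648 and 11346 on the wild-type arrays and 161, 113 and 39.8 on the glioma stem cell arrays, with a difference of -6.83 ± 0.57 (adjusted p = 0.00371). These 5 genes kept their calls with every array left out in turn.

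The other 10 of the 15 largest falls were genes of varied function. Slc6a11, the GABA transporter of astrocytes, was 9255, 14827 and 11357 on the wild-type arrays and 1333, 221 and 50.4 on the glioma stem cell arrays, with glioma stem cell array 1 well above the other two of its group. Camk2a, a calcium-dependent kinase best known from neurons, was 3063, 2295 and 2654 on the wild-type arrays and 243, 1.5 and 20.5 on the glioma stem cell arrays, again with array 1 as the highest. The membrane progestin receptor Paqr7 fell by 97.6-fold (adjusted p = 0.00548) and the actin-binding protein Nebl by 35.9-fold (adjusted p = 0.00644). The secreted ribonuclease Rnase1, the synuclein partner Sncaip, Fndc3c1, Meig1, Pdzph1 and Itih3, a hyaluronan-binding protein of plasma and matrix, had log2 differences between -5.13 and -5.87. Pdzph1 was 709.5, 925 and 755 on the wild-type arrays and 2.1, 46.3 and 66.7 on the glioma stem cell arrays. The rule that chose the 15 genes required groups that did not overlap. Slc6a11 and Rnase1 lost the call without wild-type array 1, 2 or 3 or glioma array 2 or 3, at -4.41 to -5.71 and -5.40 to -5.98. The calls of Camk2a and Pdzph1 ended without wild-type array 1, 2 or 3, Nf1-null array 1 or glioma array 2 or 3, at -5.19 to -6.92 and -5.09 to -6.03. Sncaip, at -5.10 to -5.50, was not called without wild-type array 2 or glioma array 2 or 3. Fndc3c1 lost the call without wild-type array 1 or 2 or glioma array 2 or 3, at -4.84 to -5.47. The call of Meig1 ended without wild-type array 2 or 3, at -4.95 to -5.28. Itih3, at -3.71 to -5.76, was not called without wild-type array 1, 2 or 3, Nf1-null array 1, 2 or 3 or glioma array 2 or 3. Also lost were the calls of Slc6a11 (-4.37) and Itih3 (-5.13) when the probe sets of a gene were averaged, Itih3 (-5.02) after quantile normalization and Itih3 (-4.99) with the arrays shifted to one median.

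The 15 largest rises included Itga8, Akap12, Sting1, Casp12 and Pcolce. Itga8, an integrin alpha chain that binds nephronectin and fibronectin, was 159, 219.8 and 217 on the wild-type arrays and 3199, 18747 and 17781 on the glioma stem cell arrays. Its log2 difference was 5.69 ± 0.66 (adjusted p = 0.00817), or 51.8-fold. Akap12, a scaffold for protein kinases A and C, rose from 1184, 593 and 755 to 23069.7, 38401 and 36616, a log2 difference of 5.30 ± 0.49 (adjusted p = 0.00476). Sting1, which passes on the signal of cytosolic DNA, was 84, 29.9 and 89.8 on the wild-type arrays and 1109, 3085 and 4296 on the glioma stem cell arrays, with a difference of 5.30 ± 0.67 (adjusted p = 0.00935). Casp12, a caspase linked to the endoplasmic reticulum, was 90.2, 101 and 106 on the wild-type arrays and 1819.9, 5618 and 4569 on the glioma stem cell arrays, and the difference was 5.18 ± 0.42 (adjusted p = 0.00332). Pcolce, which speeds the processing of procollagen, was 359.5, 281 and 677 on the wild-type arrays and 3074, 10696 and 9618 on the glioma stem cell arrays (difference of 4.05 ± 0.55, adjusted p = 0.0111). In each of these 5 genes glioma stem cell array 1 was the lowest of its group. That it lay above every wild-type array was required by the rule that chose the genes.

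Neurod1, a bHLH factor of neuronal differentiation, ran the other way within the group, at 190.3, 182 and 172 on the wild-type arrays and 5128, 2798 and 2676 on the glioma stem cell arrays, with array 1 the highest of the glioma stem cells and a log2 difference of 4.21 ± 0.33 (adjusted p = 0.00332). Clic5, a chloride channel family member that anchors to actin, had the largest rise by log2 difference, 6.83 ± 1.19 (adjusted p = 0.0203), from 23.9, 117 and 205 to 2955, 16714 and 18066. Apod, a lipid carrier of glia, was 35.6, 14.5 and 219.9 on the wild-type arrays and 502, 5459 and 19746 on the glioma stem cell arrays. Its glioma stem cell values were the most uneven of these genes, and the difference was 6.24 ± 1.41 (adjusted p = 0.0366). Slc24a2, a sodium, calcium and potassium exchanger of neurons, was 39.6, 62.7 and 115 on the wild-type arrays and 549, 2395 and 2088 on the glioma stem cell arrays, and Pf4, a chemokine best known from platelets, was 175, 180 and 119.8 on the wild-type arrays and 959.9, 2902 and 5114 on the glioma stem cell arrays. The calls of Clic5 and Slc24a2 ended without wild-type array 2 or glioma array 2 or 3, at 6.38 to 7.07 and 4.0 to 4.35. Apod, at 5.05 to 7.31, was not called without wild-type array 1, 2 or 3, Nf1-null array 1, 2 or 3 or glioma array 2 or 3. Pf4 lost the call without wild-type array 2 or glioma array 2, at 3.82 to 4.06. Changes in processing also ended the call of Apod (3.80) when the probe sets of a gene were averaged.

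**Figure D2:**
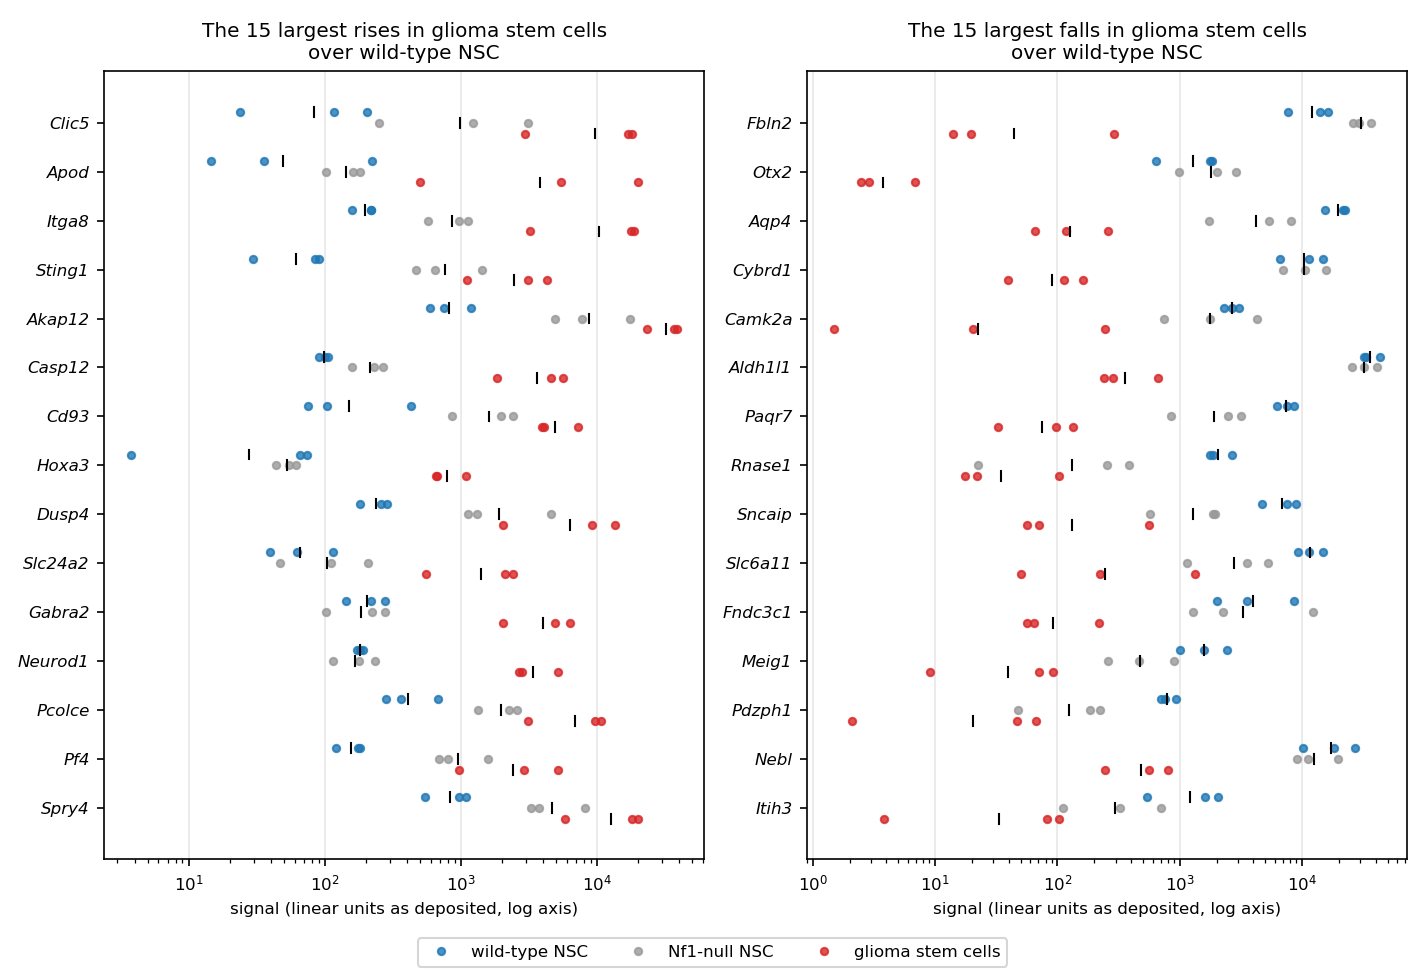
Signals on all 9 arrays (log axis, linear units as deposited) of the 15 largest rises on the left and the 15 largest falls on the right, with wild-type NSC in blue, Nf1-null NSC in grey and glioma stem cells in red. Black ticks are group means of log2(signal + 1) turned back to signals. The 30 genes were chosen only if their red and blue points did not overlap. The red points of Apod spread from 502 to 19746.

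Gene lists were used to describe families and cell types, 46 lists with 1187 measured genes. In the text a count of called members is read against 3.47% higher and 5.65% lower over all genes. A count of differences above or below 0 is read against 43.8% of all genes above 0. That share was 7969 of 18193 genes, and it became 8946 after quantile normalization and 9646 with the arrays shifted to one median. RNA of a whole culture was measured, so fewer cells of a type and less RNA per cell cannot be told apart.

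**Figure D3:**
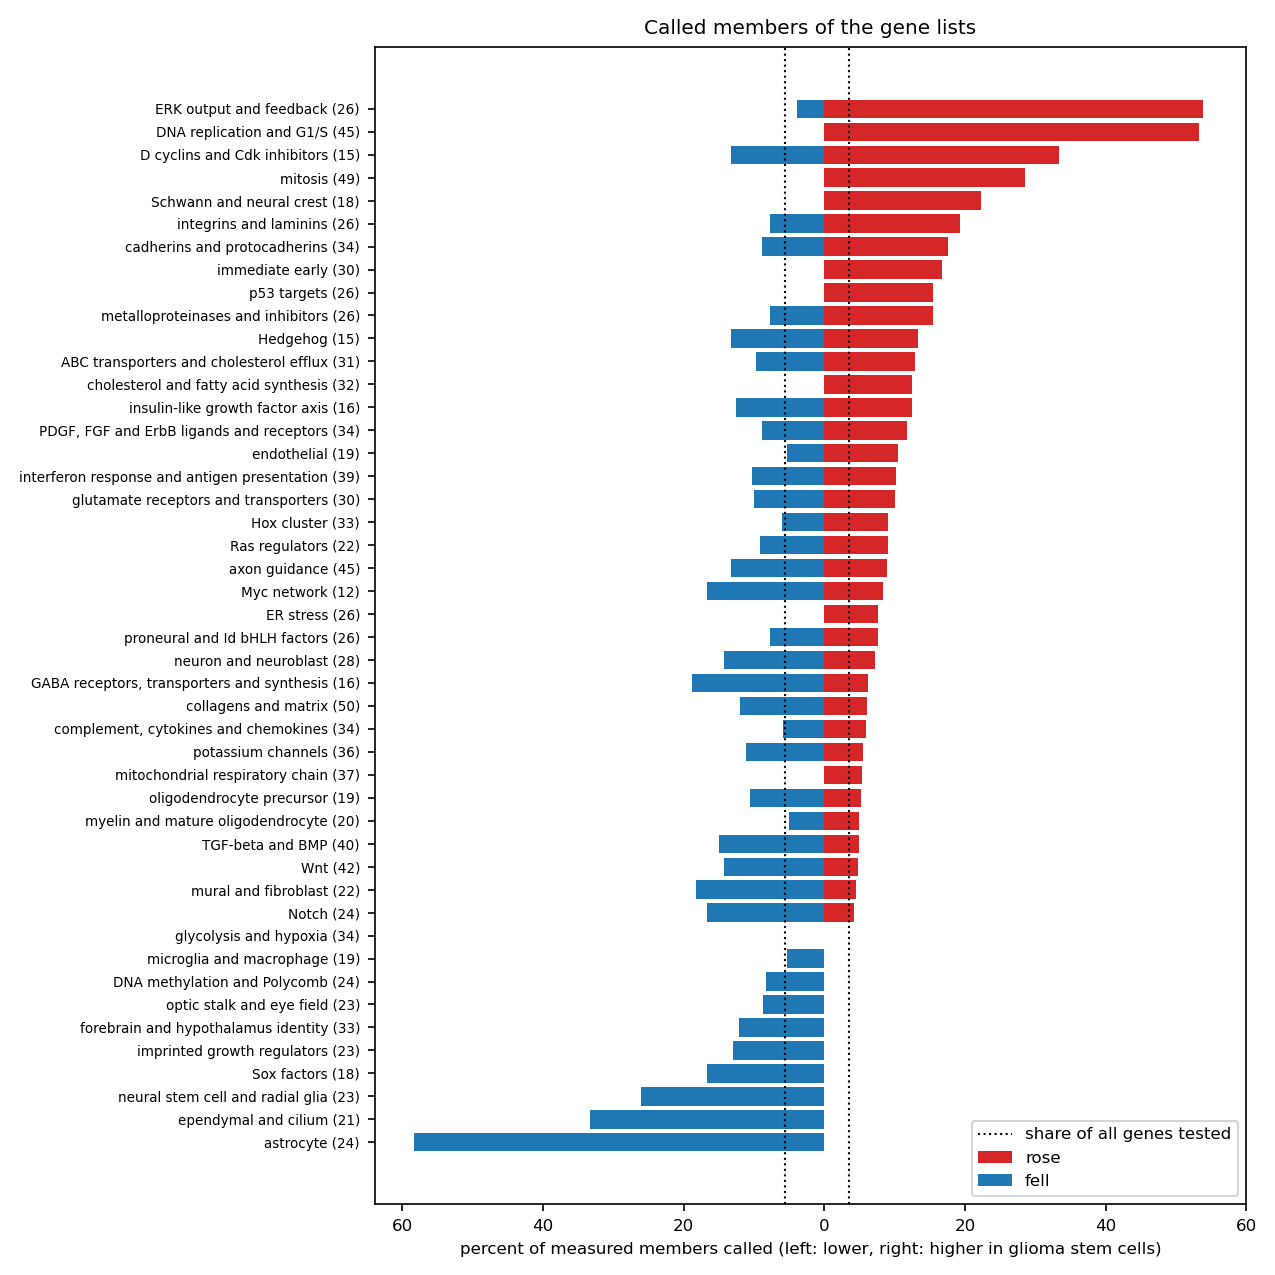
Share of the measured members of each of the 46 gene lists called higher (red, to the right) or lower (blue, to the left) in glioma stem cells than in wild-type NSC, with the number measured in parentheses and the share over all genes as dotted lines. DNA replication and ERK output lists reach farthest to the right, at 24 of 45 and 14 of 26 members, and the astrocyte list farthest to the left, at 14 of 24.

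Astrocyte genes were lower in the glioma stem cells. Of 24 measured markers 14 fell and 0 rose, and the median log2 difference over the list was -1.98, against -0.09 over all genes. The summed signal of the 24 genes was 434875 to 562022 on the wild-type arrays and 201708 to 262585 on the glioma stem cell arrays. Besides Aldh1l1 and Aqp4, the gap junction protein Gja1 (connexin 43) went from 61048, 63453 and 70232 to 13241, 5006 and 4947, a log2 difference of -3.23 ± 0.40 (adjusted p = 0.00918). Ntsr2, a neurotensin receptor of astrocytes, was 9726, 14363 and 10829 on the wild-type arrays and 1703, 448 and 368 on the glioma stem cell arrays, with a difference of -4.13 ± 0.61 (adjusted p = 0.0139). Relative to the wild-type mean, glioma stem cell arrays 1, 2 and 3 had list medians of -1.33, -1.76 and -2.09. Gfap, which was named after its values were seen because its promoter drives Cre in this mouse, had signals of 3292, 1004 and 923 on the wild-type arrays and 168, 24.4 and 52.3 on the glioma stem cell arrays, with no overlap but a wide spread (log2 difference -4.57 ± 1.23, adjusted p = 0.06). S100b, likewise named for its place as a classical marker, was 4451, 6914 and 11308 on the wild-type arrays and 17468, 34246 and 33525 on the glioma stem cell arrays, on the other side (log2 difference 1.95 ± 0.54, adjusted p = 0.0653), so the markers did not all lie the same way. Gfap passed the test under 6 of 18 alternatives and S100b under 6 of 19. The count of members that fell was 8, 3 and 4 without wild-type arrays 1, 2 and 3 and 12, 3 and 4 without glioma arrays 1, 2 and 3, and 9 without Nf1-null array 3. Ntsr2, at -3.86 to -3.97, was not called without wild-type array 2 or glioma array 2.

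Some markers of neural stem cells fell and others did not pass the test. Sox2, a factor that maintains neural progenitors, was 43918, 49794 and 42162 on the wild-type arrays and 40343, 30731 and 28137 on the glioma stem cell arrays. Its groups did not overlap, at a log2 difference of -0.47 ± 0.17 (adjusted p = 0.137), which did not pass the test. Fabp7, a lipid-binding protein of radial glia, was 111372, 121102 and 95882 on the wild-type arrays and 103505, 84909.8 and 83913 on the glioma stem cell arrays, with overlapping groups. Nes, the intermediate filament nestin, was 5326, 3122 and 3205 on the wild-type arrays and 8932, 11388 and 11363 on the glioma stem cell arrays, at a log2 difference of 1.48 ± 0.39 (adjusted p = 0.0556), just above the threshold, and it passed the test under 8 of 19 alternatives, the 6 arrays alone (adjusted p = 0.0451) and the mean of its probe sets (1.89, adjusted p = 0.0293) among them. Of the 23 measured genes of the list, 6 fell, 0 rose and the median was -0.73. Id4, an inhibitor of bHLH factors, was 12514, 13979 and 11055 on the wild-type arrays and 2106, 978 and 1053 on the glioma stem cell arrays, with a difference of -3.27 ± 0.38 (adjusted p = 0.00817). Sox1, a factor of early neural progenitors close in sequence to Sox2, was 3189, 3210.2 and 2437 on the wild-type arrays and 392, 111 and 160.1 on the glioma stem cell arrays, with a difference of -3.93 ± 0.50 (adjusted p = 0.00943). Msi1, an RNA-binding protein of progenitors, and Emx2, a homeobox factor of dorsal forebrain, had log2 differences of -1.12 ± 0.24 and -1.84 ± 0.34 (adjusted p = 0.0335 and 0.0232). Msi1 lost the call without wild-type array 1, 2 or 3, Nf1-null array 1 or glioma array 2 or 3, at -0.92 to -1.22. The call of Emx2 ended without wild-type array 2 or 3 or glioma array 2 or 3, at -1.58 to -1.79. Also lost was the call of Msi1 (-1.15) when the probe sets of a gene were averaged. The count of falls in the list was 3, 2 and 2 without wild-type arrays 1, 2 and 3 and 7, 2 and 2 without glioma arrays 1, 2 and 3, and 3 with the 6 arrays fitted alone.

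In the Sox family 3 of 18 measured members fell, 0 rose and 15 of 18 differences were below 0. Sox21 and Sox9, a repressor and an activator in glial and neural progenitors, were at log2 differences of -1.66 ± 0.40 and -1.38 ± 0.34 (adjusted p = 0.0443 and 0.0459). Sox9 signals were 7352, 7391 and 4196 on the wild-type arrays and 3587, 2249.5 and 1616 on the glioma stem cell arrays. Sox10, the factor of the oligodendrocyte and Schwann lineages, was 3479, 2511 and 1352 on the wild-type arrays and 741, 2176 and 2085 on the glioma stem cell arrays, with overlap and a difference of -0.60 ± 0.67 (adjusted p = 0.619). Sox21 and Sox9, at -1.29 to -1.70 and -1.10 to -1.65, were not called without wild-type array 1, 2 or 3, Nf1-null array 1, 2 or 3 or glioma array 2 or 3. Lost to other processing were the calls of Sox21 (-1.52) and Sox9 (-1.24) with the arrays shifted to one median and Sox21 (-1.92) when the probe sets of a gene were averaged. Of the 3 that fell, Sox1 held its call with each array left out.

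Oligodendrocyte lineage genes gave no common direction. Olig2, a bHLH factor of oligodendrocyte precursors and many gliomas, was 23759.6, 26541 and 21358 on the wild-type arrays and 36775, 33061 and 34120.4 on the glioma stem cell arrays. Every glioma stem cell value was above every wild-type value, but the log2 difference was small, 0.54 ± 0.15 (adjusted p = 0.0596), and the test was not passed. It was passed under 5 of 19 alternatives, among them the arrays shifted to one median (0.68, adjusted p = 0.0351). Pdgfra, the PDGF receptor of precursors, was 13363, 13124 and 8946 on the wild-type arrays and 2663, 14127 and 7731 on the glioma stem cell arrays, and the groups overlapped (log2 difference -0.81 ± 0.85, adjusted p = 0.597). Its other bright probe set had the opposite sign. Of 19 precursor markers 1 rose and 2 fell: Chst11, a chondroitin sulfotransferase, had a log2 difference of 1.42 ± 0.20 (adjusted p = 0.0124), Emid1 of -4.50 ± 0.64 (adjusted p = 0.0124) and the zinc finger factor Myt1 of -1.85 ± 0.44 (adjusted p = 0.0411). Chst11 lost the call without glioma array 2 or 3, at 1.35 to 1.36. The call of Emid1 ended without wild-type array 2 or glioma array 2, at -4.35 to -4.49. Myt1, at -1.71 to -2.02, was not called without wild-type array 1, 2 or 3, Nf1-null array 1 or glioma array 1, 2 or 3.

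Of 20 myelin genes 1 rose and 1 fell. Ppp1r14a, an inhibitor of myosin phosphatase, was 3.9, 3.6 and 3.5 on the wild-type arrays and 119, 57.9 and 269.6 on the glioma stem cell arrays, a log2 difference of 4.73 ± 0.56 (adjusted p = 0.00852) that became 2.85 with a pseudocount of 16, since its wild-type signals were low. Sirt2, a tubulin deacetylase of myelin, had a difference of -1.39 ± 0.32 (adjusted p = 0.0394). Mbp, myelin basic protein, was 2009, 495 and 6599 on the wild-type arrays and 2601, 29057 and 65239 on the glioma stem cell arrays. Glioma stem cell arrays 2 and 3 lay above all wild-type arrays and array 1 within their range, and the difference was 3.18 ± 1.30 (adjusted p = 0.171). Without glioma stem cell array 1 it was 4.54 and passed the test (adjusted p = 0.0433). Sirt2, at -1.13 to -1.58, was not called without wild-type array 1, 2 or 3, Nf1-null array 1 or glioma array 1, 2 or 3.

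Some genes of ependyma and motile cilia were lower. Of 21 measured members 7 fell, 0 rose and 14 did not pass the test, and the median log2 difference was -0.82. Wild-type third-ventricle cultures come from a region lined by ependyma, and the part of that origin in these differences was not tested. Tppp3, a tubulin-binding protein of ciliated cells, was 763, 1973 and 1847 on the wild-type arrays and 136, 193 and 218 on the glioma stem cell arrays, a difference of -2.97 ± 0.38 (adjusted p = 0.00963). Enkur, Rfx3 and Ccdc39, a cilium component, a factor for cilium genes and a ruler of axoneme spacing, had log2 differences of -4.55 ± 0.72, -2.08 ± 0.34 and -1.71 ± 0.31 (adjusted p = 0.0162, 0.0171 and 0.0229). Enkur signals were 187, 413 and 352 on the wild-type arrays and 10.6, 37.5 and 3.8 on the glioma stem cell arrays. The summed signal of the list was 14219 to 19893 in wild-type NSC and 4140.4 to 6901 in glioma stem cells, and 16 of 21 members were under 500 on all 6 arrays. The number that fell was 5, 1 and 2 without wild-type arrays 1, 2 and 3 and 7, 3 and 2 without glioma arrays 1, 2 and 3. The call of Enkur ended without wild-type array 2 or 3, at -4.32 to -4.43. Rfx3, at -1.79 to -1.98, was not called without wild-type array 2 or glioma array 2 or 3. Ccdc39 lost the call without wild-type array 2 or 3 or glioma array 2 or 3, at -1.54 to -1.81.

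Neuronal genes moved in both directions, with 2 of 28 higher and 4 lower. Neurod1 and the RNA-binding protein Elavl4 (log2 difference 1.08 ± 0.23, adjusted p = 0.0328) were the 2 that rose. Rbfox3, the antigen NeuN of mature neurons, was 1113, 1613 and 790.2 on the wild-type arrays and 347, 108 and 152 on the glioma stem cell arrays, with a difference of -2.65 ± 0.44 (adjusted p = 0.0182), and Snap25, a protein of synaptic vesicle fusion, had a log2 difference of -1.80 ± 0.32 (adjusted p = 0.0216). Among proneural and Id factors, Neurod1 rose while Neurog2, which acts before it in many neuronal lineages, fell from 112, 255 and 150.1 to 7.1, 30 and 6.8 (log2 difference -3.71 ± 0.55, adjusted p = 0.0141). Neurog2 was thus near the bottom of the range in glioma stem cells, and its difference was -2.63 with a pseudocount of 16. Rbfox3, at -2.28 to -2.53, was not called without wild-type array 2 or glioma array 2 or 3. Snap25 lost the call without wild-type array 1, 2 or 3 or glioma array 2 or 3, at -1.56 to -1.87. The call of Elavl4 ended without wild-type array 1, 2 or 3 or glioma array 1, 2 or 3, at 0.96 to 1.17. Neurog2, at -3.36 to -3.38, was not called without wild-type array 2 or glioma array 3.

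Markers of other cells that a tumour culture could hold were low or mixed. All 19 microglia and macrophage markers were under 500 on all 6 arrays, and their summed signal was 2076 to 2817 in wild-type NSC and 1993 to 2785 in glioma stem cells. The 1 called member, Siglech, a lectin of microglia, was 182, 247 and 185 on the wild-type arrays and 101, 116 and 127 on the glioma stem cell arrays, dim on every array. Of 19 endothelial markers 16 were under 500 on all 6 arrays. The summed signal of the 19 was 4250.5 to 6560 in wild-type NSC and 9941.5 to 12422 in glioma stem cells, and 2 of the 19 rose. These were Cd93, a C-type lectin receptor, at 426, 75.5 and 104 on the wild-type arrays and 7273, 3894 and 4081 on the glioma stem cell arrays (log2 difference 5.02 ± 0.69, adjusted p = 0.0113), and Plvap, a protein of endothelial fenestrae, at 356, 392 and 580.2 on the wild-type arrays and 1649.7, 3989 and 5532 on the glioma stem cell arrays (difference 2.94 ± 0.51, adjusted p = 0.0197). Cd93 and Plvap are among the genes in these sums. Both also lay above wild-type on the Nf1-null arrays, Cd93 at 2397, 1978 and 851 and Plvap at 1859, 4560 and 2561. Pecam1, a defining endothelial gene named for this check, was 189.8, 19.7 and 33 on the wild-type arrays and 146, 13.3 and 104 on the glioma stem cell arrays, and Emcn had a log2 difference of -1.88 ± 0.42 (adjusted p = 0.0358). Of 22 mural and fibroblast markers 4 fell and 1 rose. Pdgfrb, the PDGF receptor of pericytes, was 60.8, 120 and 26.8 on the wild-type arrays and 1.4, 1.2 and 3.9 on the glioma stem cell arrays, so low that its log2 difference of -4.32 ± 0.70 became -2.08 with a pseudocount of 16. Acta2, smooth muscle actin, had a log2 difference of -1.82 ± 0.28 (adjusted p = 0.0146) and Myl9 of -2.03 ± 0.33 (adjusted p = 0.0176). The part of other cells in the differences was not tested. Siglech, at -0.68 to -0.90, was not called without wild-type array 1, 2 or 3, Nf1-null array 1 or glioma array 1, 2 or 3. Plvap lost the call without wild-type array 1 or 2 or glioma array 2 or 3, at 2.57 to 2.86. The call of Emcn ended without wild-type array 1, 2 or 3, Nf1-null array 1 or 3 or glioma array 2 or 3, at -1.62 to -2.24. Pdgfrb, at -3.81 to -4.11, was not called without wild-type array 2 or glioma array 2. Acta2 lost the call without glioma array 2 or 3, at -1.72 to -1.86. The call of Myl9 ended without wild-type array 2 or 3 or glioma array 2 or 3, at -1.76 to -2.05. Other processing ended the calls of Siglech (-0.66) after quantile normalization, Siglech (-0.68) with the arrays shifted to one median, Siglech (-0.82) with a mean-variance trend and Pdgfrb (-1.68) and Acta2 (-0.93) when the probe sets of a gene were averaged.

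Among 18 Schwann cell and neural crest genes 4 rose and 0 fell. Differences were above 0 for 11 and below 0 for 7, Sox10 among the latter, with a median log2 difference of 0.61. Gap43, a growth cone protein also found in Schwann cells, was 2684, 1582 and 2075 on the wild-type arrays and 15757, 22655 and 26247 on the glioma stem cell arrays, a log2 difference of 3.35 ± 0.43 (adjusted p = 0.00963). Cdh19, a cadherin of crest derivatives, was 786, 639 and 1973 on the wild-type arrays and 7181, 7192 and 7455 on the glioma stem cell arrays, with a log2 difference of 2.87 ± 0.41 (adjusted p = 0.0127). Pou3f1, a POU factor of Schwann cells and progenitors, and Dhh, the hedgehog ligand of Schwann cells, had log2 differences of 1.68 ± 0.33 and 2.34 ± 0.51 (adjusted p = 0.0275 and 0.0338). On the Nf1-null arrays Gap43 was 16439, 31630 and 9897, Pou3f1 3594, 5904 and 4756 and Dhh 761, 535 and 446. These 3 genes overlapped the glioma stem cell range there, while Cdh19, at 1655, 2034 and 2772, lay below it. The summed signal of the list was 29273 to 34255 in wild-type NSC and 59608 to 96317 in glioma stem cells. Gap43 and S100b, a member that was not called, are among the genes in these sums. Cdh19 lost the call without glioma array 2, at 2.87. The call of Pou3f1 ended without wild-type array 2 or glioma array 2 or 3, at 1.32 to 1.66. Dhh, at 1.80 to 2.44, was not called without wild-type array 2 or 3, Nf1-null array 1 or glioma array 2 or 3. Also lost were the calls of Pou3f1 (1.19) and Dhh (1.24) when the probe sets of a gene were averaged. The number that rose was 4, 2 and 3 without wild-type arrays 1, 2 and 3 and 4, 1 and 2 without glioma arrays 1, 2 and 3, and 2 when the probe sets of a gene were averaged.

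Genes that mark position along the neural tube differed at a few members. Of 33 forebrain and hypothalamus genes 4 fell and 0 rose: Otx2, Emx2, Otx1 and Tbx3. Otx1, a relative of Otx2, was 169.9, 732 and 721 on the wild-type arrays and 123, 7.6 and 9.7 on the glioma stem cell arrays, and the T-box factor Tbx3, which is expressed in the developing hypothalamus, was at a log2 difference of -1.65 ± 0.35 (adjusted p = 0.0309). Of 23 optic stalk and eye field genes, Otx2 and Pmel, a melanosome protein (log2 difference -1.42 ± 0.32, adjusted p = 0.0366), were called, both lower. Of 33 Hox genes, which are active in hindbrain and spinal cord and silent in forebrain, 3 rose and 2 fell. Hoxa4 was 9.0, 4.8 and 6.1 on the wild-type arrays and 233, 281 and 321 on the glioma stem cell arrays, Hoxa5 225, 219 and 522 on the wild-type arrays and 3687, 3540.2 and 3449.7 on the glioma stem cell arrays and Hoxa3 3.8, 73.4 and 65.7 on the wild-type arrays and 1094, 662 and 659 on the glioma stem cell arrays. Their log2 differences were 5.22 ± 0.42, 3.59 ± 0.57 and 4.77 ± 0.97 (adjusted p = 0.00332, 0.016 and 0.0289), and that of Hoxa4 was 3.69 with a pseudocount of 16. The 3 neighbours of the HoxA cluster were raised on all 3 glioma stem cell arrays. Hoxb9, at 76.7, 64.1 and 55.7 on the wild-type arrays and 26.3, 15 and 23.5 on the glioma stem cell arrays, fell within the lowest part of the range. The call of Otx1 ended without wild-type array 1, 2 or 3, Nf1-null array 1, 2 or 3 or glioma array 2 or 3, at -3.62 to -5.01. Tbx3, at -1.34 to -1.93, was not called without wild-type array 1, 2 or 3, Nf1-null array 1 or glioma array 1, 2 or 3. Pmel lost the call without wild-type array 1, 2 or 3, Nf1-null array 2 or glioma array 1, 2 or 3, at -1.27 to -1.58. The call of Hoxa5 ended without wild-type array 2 or glioma array 2 or 3, at 3.37 to 3.61. Hoxa3, at 4.52 to 5.45, was not called without wild-type array 2 or 3 or glioma array 1, 2 or 3. Hoxb9 lost the call without wild-type array 1, 2 or 3 or glioma array 2 or 3, at -1.35 to -1.69. Changes in processing also ended the calls of Otx1 (-4.19) after quantile normalization, Otx1 (-4.18) with the arrays shifted to one median, Otx1 (-4.32) and Tbx3 (-0.63) when the probe sets of a gene were averaged and Hoxb9 (-1.58) with a mean-variance trend.

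Many genes of DNA replication were higher in glioma stem cells. Of 45 measured genes of replication and the G1/S transition, 24 rose and 0 fell, and all 45 log2 differences were above 0, with a median of 1.66. Against the wild-type mean, list medians were 2.01, 1.57 and 1.48 on glioma stem cell arrays 1, 2 and 3 and 0.69, -0.41 and -0.17 on the wild-type arrays. The groups of 41 of the 45 genes did not overlap, set against 34.9% of all genes in either direction. Cdt1, which loads the MCM helicase onto origins, was 1469.7, 455 and 514 on the wild-type arrays and 9023, 5969 and 5458 on the glioma stem cell arrays, a log2 difference of 3.24 ± 0.52 (adjusted p = 0.0166). Ccne2, the cyclin that drives entry into S phase, was 855, 338 and 341 on the wild-type arrays and 3932, 3406 and 3781 on the glioma stem cell arrays, with a log2 difference of 3.00 ± 0.52 (adjusted p = 0.0196). Gins2, a subunit of the replicative helicase, was 1079, 703 and 729.7 on the wild-type arrays and 4084, 2793 and 2768 on the glioma stem cell arrays (log2 difference 1.94 ± 0.29, adjusted p = 0.0143), and Pola1, the catalytic subunit of DNA polymerase alpha, was 1307, 781 and 1093 on the wild-type arrays and 4192, 3888 and 3576 on the glioma stem cell arrays (log2 difference 1.90 ± 0.30, adjusted p = 0.0157). In all 4 genes wild-type array 1 was the highest of its group, and no wild-type array reached the glioma stem cells. The calls depended on single arrays: the number of members that rose was 24, 0 and 2 without wild-type arrays 1, 2 and 3 and 10, 0 and 1 without glioma arrays 1, 2 and 3. Cdt1 and Ccne2, at 2.93 to 3.39 and 2.77 to 3.06, were not called without wild-type array 2 or 3 or glioma array 2 or 3. Gins2 lost the call without wild-type array 2 or glioma array 2, at 1.83 to 2.03. The call of Pola1 ended without wild-type array 2 or glioma array 2 or 3, at 1.70 to 1.96. Lost to other processing was the call of Pola1 (1.11) when the probe sets of a gene were averaged.

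Promoters of replication genes are known to bind E2F factors, which are held in check by the retinoblastoma protein until cyclin D kinases act. The letters TTTCGCGC, TTTGGCGC, TTTCCCGC and TTTGCCGC were searched on both strands of the 250 bases before the RefSeq start site (GRCm38.p6), and matches may overlap. A match was found for 455 of 14433 tested genes with a window (3.15%). It was found for 9 of 37 replication genes (24.3%), for 5 of the 20 called members with a window (25.0%), for 34 of 501 genes called higher (6.79%) and for 17 of 823 called lower (2.07%). The windows of 4 of those 5 called members are shown because they carry the matches among genes that rose, with the matching letters in capitals and each sequence written 5' to 3' on the strand of its gene. Pola1 lies at chrX:93632156-93632405 on the minus strand, Cdc6 at chr11:98907901-98908150 on the plus strand, Mcm6 at chr1:128359706-128359955 on the minus strand and Mcm5 at chr8:75109259-75109508 on the plus strand.
Pola1: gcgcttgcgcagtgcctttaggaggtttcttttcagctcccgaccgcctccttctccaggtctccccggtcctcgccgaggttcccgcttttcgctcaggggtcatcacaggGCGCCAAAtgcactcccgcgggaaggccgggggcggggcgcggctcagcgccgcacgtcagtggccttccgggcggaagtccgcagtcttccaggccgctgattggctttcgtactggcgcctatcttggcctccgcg
Cdc6: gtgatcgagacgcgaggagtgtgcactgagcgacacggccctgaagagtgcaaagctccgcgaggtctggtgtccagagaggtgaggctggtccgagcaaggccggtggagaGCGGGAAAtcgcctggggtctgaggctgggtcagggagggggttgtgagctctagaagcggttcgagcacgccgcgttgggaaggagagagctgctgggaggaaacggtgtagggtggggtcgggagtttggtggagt
Mcm6: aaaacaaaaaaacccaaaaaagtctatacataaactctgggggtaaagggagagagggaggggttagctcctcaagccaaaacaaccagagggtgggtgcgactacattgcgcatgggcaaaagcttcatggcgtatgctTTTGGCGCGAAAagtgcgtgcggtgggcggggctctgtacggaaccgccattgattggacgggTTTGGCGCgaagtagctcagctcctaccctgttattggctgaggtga
Mcm5: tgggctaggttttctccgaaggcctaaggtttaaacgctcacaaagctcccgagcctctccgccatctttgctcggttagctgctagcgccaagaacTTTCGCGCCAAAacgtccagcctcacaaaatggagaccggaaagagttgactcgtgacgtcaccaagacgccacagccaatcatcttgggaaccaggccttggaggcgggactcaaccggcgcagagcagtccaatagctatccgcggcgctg
Mcm6 holds 3 matches, at -110, -106 and -47 from the start site, of which the first 2 overlap, and Mcm5 holds 2 overlapping ones at -153 and -149. Pola1 and Cdc6 hold 1 each, at -138. Cdc6, Mcm6 and Mcm5 are named for their windows. Cdc6, the loading factor that acts with Cdt1, had signals of 342, 122 and 196 on the wild-type arrays and 1794, 1402 and 1483 on the glioma stem cell arrays (log2 difference 2.93 ± 0.51, adjusted p = 0.0197). The helicase subunit Mcm6 read 2918, 959 and 770.1 on the wild-type arrays and 12502, 7276 and 7928 on the glioma stem cell arrays (log2 difference 2.79 ± 0.62, adjusted p = 0.0351) and Mcm5 3859.6, 617 and 1171 on the wild-type arrays and 16725, 9336 and 9606 on the glioma stem cell arrays (log2 difference 3.02 ± 0.70, adjusted p = 0.0396). In all 3 glioma stem cell array 1 was the highest of the 6 arrays. Cdc6 lost the call without wild-type array 2 or 3 or glioma array 2 or 3, at 2.58 to 3.01. The call of Mcm6 ended without wild-type array 2 or 3, Nf1-null array 2 or glioma array 1, 2 or 3, at 2.42 to 2.95. Mcm5, at 2.43 to 3.17, was not called without wild-type array 2 or 3, Nf1-null array 2 or 3 or glioma array 1, 2 or 3. Also lost was the call of Mcm6 (1.72) when the probe sets of a gene were averaged.

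Genes of mitosis lay in the same direction with wider spread. Of 49 measured members 14 rose, 0 fell and all 49 differences were above 0, with a median of 2.14, larger than that of the replication list. Mad2l1, a spindle checkpoint protein, was 2835, 834 and 1263 on the wild-type arrays and 11807, 7242 and 7872 on the glioma stem cell arrays, a log2 difference of 2.60 ± 0.48 (adjusted p = 0.0226). Spc25, a kinetochore protein, was 3069.5, 712 and 1387 on the wild-type arrays and 9377, 7894 and 9299 on the glioma stem cell arrays (log2 difference 2.61 ± 0.51, adjusted p = 0.0264). Prc1, which bundles microtubules of the midzone, and the condensin subunit Smc2 had log2 differences of 2.14 ± 0.43 and 1.71 ± 0.36 (adjusted p = 0.0278 and 0.0313). Mki67, the antigen Ki-67 of cycling cells, named after its values were seen, was 8971, 887 and 2718 on the wild-type arrays and 25120.4, 16698 and 17637 on the glioma stem cell arrays. Its groups did not overlap, yet its wild-type values were uneven, and its adjusted p was 0.0642, with the test passed under 5 of 19 alternatives. List medians were 2.62, 1.97 and 2.02 on the glioma stem cell arrays and 1.23, -1.03 and -0.18 on the wild-type arrays, so wild-type array 1 was nearest to the glioma stem cells. The number of members that rose was 38, 0 and 0 without wild-type arrays 1, 2 and 3 and 2, 0 and 0 without glioma arrays 1, 2 and 3, and 1 with the 6 arrays fitted alone and 6, 4 and 7 without Nf1-null arrays 1, 2 and 3. Mad2l1 and Spc25, at 2.21 to 2.74 and 2.10 to 2.69, were not called without wild-type array 2 or 3 or glioma array 2 or 3. Prc1 and Smc2 lost the call without wild-type array 2 or 3 or glioma array 1, 2 or 3, at 1.87 to 2.23 and 1.51 to 1.79.

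Cyclins D1 and D2 rose, and of the Cdk inhibitors named here p21 rose and p57 fell. Ccnd1, whose product opens the G1 phase and is a target of ERK, was 7568, 2065 and 6189 on the wild-type arrays and 51782, 82143 and 77493 on the glioma stem cell arrays, a log2 difference of 3.91 ± 0.47 (adjusted p = 0.00899) or 15-fold. Ccnd2 was 22169, 10715 and 18032 on the wild-type arrays and 62487, 85152 and 80966 on the glioma stem cell arrays, with a log2 difference of 2.22 ± 0.30 (adjusted p = 0.0113). Cdkn1a, the inhibitor p21, rose from 4489.7, 5473 and 10829 to 22677, 34392 and 30939.5 (log2 difference 2.17 ± 0.36, adjusted p = 0.019), and Cdkn1c, the inhibitor p57, fell from 949.7, 2196 and 1785 to 414, 228 and 218 (log2 difference -2.49 ± 0.42, adjusted p = 0.0192). In all, 5 of 15 D cyclins, inhibitors and pocket proteins rose and 2 fell, and the number that rose was 5, 2 and 3 without wild-type arrays 1, 2 and 3 and 4, 1 and 2 without glioma arrays 1, 2 and 3. Ccnd2 lost the call without glioma array 2, at 2.13. The call of Cdkn1a ended without wild-type array 2 or glioma array 2 or 3, at 2.04 to 2.12. Cdkn1c, at -2.24 to -2.39, was not called without wild-type array 2 or 3 or glioma array 2 or 3.

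Targets and feedback inhibitors of ERK were higher. Of 26 measured genes 14 rose and 1 fell, 24 differences were above 0, and the median log2 difference was 1.35. Dusp6, a phosphatase that removes the activating phosphates from ERK, was 7562, 3998 and 7494 on the wild-type arrays and 33858, 50178 and 52680 on the glioma stem cell arrays, a log2 difference of 2.88 ± 0.38 (adjusted p = 0.0102). Dusp4, its nuclear relative, was 259, 287 and 183 on the wild-type arrays and 2048, 9213 and 13509 on the glioma stem cell arrays (log2 difference 4.73 ± 0.78, adjusted p = 0.0182). Spry4, a Sprouty inhibitor of receptor signals to Ras, was 959, 546 and 1091 on the wild-type arrays and 5748, 17829 and 19748 on the glioma stem cell arrays (log2 difference 3.93 ± 0.57, adjusted p = 0.0131). Il1rap, an interleukin-1 co-receptor, rose by 2.94-fold (adjusted p = 0.00915). Glioma stem cell array 1 was the lowest of its group for Dusp4 and Spry4, and the list median was 0.94, 1.63 and 1.54 on arrays 1, 2 and 3. Epha4, an ephrin receptor, was the member that fell, from 1793, 1948 and 2495 to 614, 371 and 279 (log2 difference -2.36 ± 0.29, adjusted p = 0.00918). The number that rose was 8, 3 and 4 without wild-type arrays 1, 2 and 3 and 14, 3 and 4 without glioma arrays 1, 2 and 3, and Ccnd1, Dusp6, Il1rap and Epha4 were called each time. The call of Dusp4 ended without wild-type array 2 or 3 or glioma array 2 or 3, at 4.18 to 4.86. Spry4, at 3.63 to 3.68, was not called without wild-type array 2 or glioma array 2.

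Immediate early genes, which respond within minutes to growth factors, gave 5 rises among 30 and 0 falls. Jun, a subunit of AP-1, was 2543, 2896 and 2362 on the wild-type arrays and 7054, 8405 and 8272 on the glioma stem cell arrays, a log2 difference of 1.61 ± 0.30 (adjusted p = 0.024). Dusp1, a phosphatase of MAP kinases, had a log2 difference of 1.49 ± 0.31 (adjusted p = 0.0309), and the zinc finger factors Klf10 and Klf6 had log2 differences of 1.83 ± 0.33 and 1.86 ± 0.38 (adjusted p = 0.0224 and 0.0292). With 1 of the 6 arrays left out the number that rose was 2, 0 and 0 without wild-type arrays 1, 2 and 3 and 6, 0 and 0 without glioma arrays 1, 2 and 3. Jun and Klf6, at 1.54 to 1.69 and 1.65 to 1.93, were not called without wild-type array 1, 2 or 3 or glioma array 2 or 3. Dusp1 and Klf10 lost the call without wild-type array 2 or 3 or glioma array 2 or 3, at 1.34 to 1.43 and 1.70 to 1.92.

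Of 22 regulators of Ras 2 rose and 2 fell, counting Nf1. Spred2, which brings neurofibromin to the membrane, had a log2 difference of 1.01 ± 0.19 (adjusted p = 0.0247). Rasa2, another GTPase-activating protein for Ras, was 5912, 6967 and 6265 on the wild-type arrays and 3843, 4524 and 3573 on the glioma stem cell arrays (log2 difference -0.68 ± 0.16, adjusted p = 0.0374), and Dab2ip, from the same class, had a log2 difference of 0.72 ± 0.17 (adjusted p = 0.0383). These differences were under or near 2-fold. Spred2 lost the call without wild-type array 1, 2 or 3 or glioma array 2 or 3, at 0.89 to 1.08. The call of Rasa2 ended without wild-type array 1, 2 or 3, Nf1-null array 1 or glioma array 1, 2 or 3, at -0.61 to -0.78. Dab2ip, at 0.66 to 0.83, was not called without wild-type array 1, 2 or 3, Nf1-null array 1 or 2 or glioma array 2 or 3. Also lost was the call of Rasa2 (-0.55) with the arrays shifted to one median and Rasa2 (-0.60) when the probe sets of a gene were averaged.

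Growth factors and their receptors shifted one by one, with 4 of 34 PDGF, FGF and ErbB genes higher and 3 lower. Among ligands, Pdgfa, which acts on PDGF receptor alpha, was 1083, 1204 and 1372 on the wild-type arrays and 3599, 12306 and 12941 on the glioma stem cell arrays, a log2 difference of 2.77 ± 0.51 (adjusted p = 0.0226), and Hbegf, a ligand of the EGF receptor, was 1357, 1370 and 1492 on the wild-type arrays and 5053, 7483 and 6271 on the glioma stem cell arrays (log2 difference 2.14 ± 0.41, adjusted p = 0.0247). Among receptors, Fgfr2 fell from 2033, 3114 and 2219 to 1169, 947 and 1102 (log2 difference -1.17 ± 0.20, adjusted p = 0.0197). Egfr, the EGF receptor, named for its ligand, was 40518, 34558 and 30211 on the wild-type arrays and 20363, 7217 and 6883 on the glioma stem cell arrays, with no overlap and a log2 difference of -1.80 ± 0.46 (adjusted p = 0.0532), which passed the test under 6 of 19 alternatives. The media held EGF and FGF for both groups. In the insulin-like growth factor axis 2 of 16 rose and 2 fell. Igfbp3, a binding protein that holds these factors, was 6825, 5925 and 11165 on the wild-type arrays and 52953, 72241 and 66445 on the glioma stem cell arrays (log2 difference 3.05 ± 0.39, adjusted p = 0.00935). Igf1 was 469, 272 and 516 on the wild-type arrays and 109, 32.1 and 64.9 on the glioma stem cell arrays (log2 difference -2.71 ± 0.44, adjusted p = 0.0174), Irs1, an adaptor of the receptor, had a log2 difference of 0.78 ± 0.17 (adjusted p = 0.0334), and Igfbp5, another binding protein, was 19092, 25764 and 17928 on the wild-type arrays and 7865, 622 and 528 on the glioma stem cell arrays, with array 1 far above arrays 2 and 3. Pdgfa and Hbegf, at 2.45 to 2.86 and 2.0 to 2.18, were not called without wild-type array 1, 2 or 3 or glioma array 2 or 3. Fgfr2 lost the call without wild-type array 2 or 3 or glioma array 2 or 3, at -0.99 to -1.23. The call of Igf1 ended without wild-type array 3 or glioma array 3, at -2.53 to -2.75. Irs1, at 0.71 to 0.81, was not called without wild-type array 1, 2 or 3, Nf1-null array 1 or glioma array 1, 2 or 3. Igfbp5 lost the call without wild-type array 1, 2 or 3, Nf1-null array 1, 2 or 3 or glioma array 2 or 3, at -3.22 to -4.01. Other processing ended the calls of Fgfr2 (-0.65) and Igfbp5 (-2.11) when the probe sets of a gene were averaged.

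Notch and Wnt genes lay mostly below wild-type. Of 24 Notch pathway genes 4 fell, 1 rose and 21 had differences under 0. The target genes split: Hey2 was 1837, 1142 and 843 on the wild-type arrays and 104, 129.9 and 127 on the glioma stem cell arrays, a log2 difference of -3.33 ± 0.52 (adjusted p = 0.0157), and Hey1 had a log2 difference of -1.54 ± 0.31 (adjusted p = 0.0279), whereas Hes1 was 1372, 1580.4 and 1589.5 on the wild-type arrays and 2331, 2910.4 and 3189 on the glioma stem cell arrays, with a log2 difference of 0.88 ± 0.20 (adjusted p = 0.0366). The receptor Notch2 was 6858, 6053 and 5052 on the wild-type arrays and 2946, 1194 and 893 on the glioma stem cell arrays (log2 difference -2.02 ± 0.41, adjusted p = 0.0283). Of 42 Wnt genes 6 fell and 2 rose, and 33 differences were under 0. Lgr5, a receptor that amplifies Wnt signals and is itself a Wnt target, was 526, 519 and 441 on the wild-type arrays and 3284, 1689 and 1971 on the glioma stem cell arrays, with a log2 difference of 2.17 ± 0.31 (adjusted p = 0.0124), and the receptor Fzd1 was 2633, 2293 and 2627 on the wild-type arrays and 13125, 22423 and 22671 on the glioma stem cell arrays, with a log2 difference of 2.90 ± 0.45 (adjusted p = 0.0157). The inhibitor Nkd2 and the ligand Wnt5b had log2 differences of -2.14 ± 0.30 and -1.95 ± 0.32 (adjusted p = 0.0124 and 0.0179). Hey2 and Fzd1 lost the call without wild-type array 2 or glioma array 2 or 3, at -3.37 to -3.39 and 2.77 to 2.84. The calls of Hey1 and Notch2 ended without wild-type array 1, 2 or 3 or glioma array 2 or 3, at -1.35 to -1.66 and -1.66 to -2.14. Hes1, at 0.79 to 0.92, was not called without wild-type array 1, 2 or 3, Nf1-null array 1 or glioma array 2 or 3. Nkd2 lost the call without wild-type array 2, at -1.99. The call of Wnt5b ended without wild-type array 2 or 3 or glioma array 2 or 3, at -1.72 to -2.05. Also lost was the call of Notch2 (-1.47) when the probe sets of a gene were averaged. The number of Notch genes that fell was 1, 0 and 1 without wild-type arrays 1, 2 and 3 and 9, 0 and 0 without glioma arrays 1, 2 and 3, and 2 with the 6 arrays fitted alone and 2 when the probe sets of a gene were averaged, and that of Wnt genes that fell was 2, 0 and 2 without wild-type arrays 1, 2 and 3 and 11, 1 and 1 without glioma arrays 1, 2 and 3, and 3 and 3 without Nf1-null arrays 1 and 3.

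In the hedgehog pathway 2 of 15 genes fell and 2 rose. The factor Gli1, whose level follows pathway activity, was 157, 177 and 156 on the wild-type arrays and 62.9, 12.1 and 34.3 on the glioma stem cell arrays, a log2 difference of -2.41 ± 0.55 (adjusted p = 0.0378), and Gli2 had a log2 difference of -1.78 ± 0.30 (adjusted p = 0.019). Dhh, given above, and the co-receptor Gas1 (log2 difference 0.94 ± 0.23, adjusted p = 0.0441) were the rises. Glioma stem cell values of Gli1 were dim throughout. The call of Gli1 ended without wild-type array 1, 2 or 3, Nf1-null array 1 or 2 or glioma array 2 or 3, at -1.79 to -2.50. Gli2, at -1.56 to -1.95, was not called without wild-type array 2 or 3 or glioma array 2 or 3. Gas1 lost the call without wild-type array 1, 2 or 3, Nf1-null array 3 or glioma array 1, 2 or 3, at 0.80 to 1.04. Changes in processing also ended the call of Gas1 (0.56) when the probe sets of a gene were averaged.

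In the TGF-beta and BMP list of 40 genes 2 rose and 6 fell, and members of the TGF-beta ligands themselves moved apart. Tgfb2 was 2348, 2403 and 2409 on the wild-type arrays and 7164, 7787 and 9469 on the glioma stem cell arrays, a log2 difference of 1.76 ± 0.17 (adjusted p = 0.00587). Tgfb3 was 352, 229 and 326 on the wild-type arrays and 16, 35.7 and 27.7 on the glioma stem cell arrays, a difference of -3.51 ± 0.35 (adjusted p = 0.00587). Bmp7, a ligand of BMP receptors, rose from 1224, 1226 and 1101 to 3088, 3006 and 3871 (log2 difference 1.48 ± 0.15, adjusted p = 0.00614). Id4, a target of BMP signals, fell, as given above. Tgfb2, Bmp7 and Id4 kept their calls under all 19 alternatives, and Tgfb3 under the 18 that tested it. The number of members that fell was 3, 2 and 3 without wild-type arrays 1, 2 and 3 and 5, 2 and 2 without glioma arrays 1, 2 and 3, and 2 with the 6 arrays fitted alone.

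Matrix and adhesion genes differed in both directions. Of 50 collagen and matrix genes 3 rose and 6 fell. The matrix rises were 0, 0 and 0 without wild-type arrays 1, 2 and 3 and 3, 0 and 0 without glioma arrays 1, 2 and 3, and 1 when the probe sets of a gene were averaged, and the falls 2, 2 and 2 without wild-type arrays 1, 2 and 3 and 5, 2 and 2 without glioma arrays 1, 2 and 3. Besides Fbln2, Col9a3, a chain of the fibril-associated collagen IX, was 1613, 1322 and 2907 on the wild-type arrays and 297, 109.5 and 212 on the glioma stem cell arrays, a log2 difference of -3.26 ± 0.44 (adjusted p = 0.0111), and the basement membrane chain Col4a6 had a log2 difference of -2.93 ± 0.60 (adjusted p = 0.0299). Fbn2, a fibrillin of microfibrils, rose (log2 difference 2.24 ± 0.44, adjusted p = 0.0267). Of 26 integrins and laminins 5 rose and 2 fell, and the rises were 4, 2 and 2 without wild-type arrays 1, 2 and 3 and 5, 2 and 2 without glioma arrays 1, 2 and 3, and 3 when the probe sets of a gene were averaged. With Itga8 the alpha chains Itga1, a collagen receptor, and Itga9 rose (log2 differences 1.63 ± 0.21 and 1.61 ± 0.30, adjusted p = 0.00939 and 0.0229), and Itgb5, a chain of a vitronectin receptor, fell from 6759.9, 6957 and 3542 to 1148, 536 and 441 (log2 difference -3.08 ± 0.47, adjusted p = 0.0154). Col4a6 and Fbn2, at -2.67 to -3.22 and 2.13 to 2.46, were not called without wild-type array 1, 2 or 3 or glioma array 2 or 3. Itga9 lost the call without wild-type array 2 or 3 or glioma array 2 or 3, at 1.52 to 1.66. The call of Itgb5 ended without wild-type array 2 or glioma array 2 or 3, at -2.81 to -2.95. Lost to other processing was the call of Itga1 (1.10) when the probe sets of a gene were averaged.

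Of 26 metalloproteinases and inhibitors 4 rose, 2 fell and 20 did not pass the test. Mmp14, a membrane-bound collagenase, was 2875, 3686 and 4605 on the wild-type arrays and 468, 590.2 and 422 on the glioma stem cell arrays, a log2 difference of -2.90 ± 0.30 (adjusted p = 0.00604), and was called under all 19 alternatives. The secreted proteases Adamts1 and Adamts5, which cleave aggrecan and versican, were 515, 415 and 587 on the wild-type arrays and 2172, 5486 and 4824 on the glioma stem cell arrays and 421, 421 and 394 on the wild-type arrays and 1785, 5285 and 7149.9 on the glioma stem cell arrays, in that order, with log2 differences of 2.94 ± 0.48 and 3.30 ± 0.59 (adjusted p = 0.0179 and 0.0213). Adam12, a membrane-bound sheddase, had a log2 difference of 2.62 ± 0.45 (adjusted p = 0.0194). Adamts1 lost the call without wild-type array 2 or glioma array 2 or 3, at 2.69 to 2.81. The call of Adamts5 ended without wild-type array 2 or 3 or glioma array 2 or 3, at 2.90 to 3.32. Adam12, at 2.45 to 2.56, was not called without glioma array 2 or 3.

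Axon guidance genes gave 4 rises and 6 falls among 45. Ephb1, an ephrin receptor, was 3296, 4381 and 3217 on the wild-type arrays and 1198, 919 and 1104 on the glioma stem cell arrays, a log2 difference of -1.75 ± 0.18 (adjusted p = 0.00604). Slit2, a repellent that steers retinal axons at the optic chiasm, was 4272, 1841 and 2197 on the wild-type arrays and 135, 315 and 367 on the glioma stem cell arrays (log2 difference -3.37 ± 0.58, adjusted p = 0.0197). Plxnd1, a semaphorin receptor, rose (log2 difference 2.30 ± 0.39, adjusted p = 0.0195). The number of axon guidance genes that fell was 4, 2 and 3 without wild-type arrays 1, 2 and 3 and 8, 2 and 2 without glioma arrays 1, 2 and 3, and that of rises 1, 1 and 0 without wild-type arrays 1, 2 and 3 and 3, 0 and 0 without glioma arrays 1, 2 and 3, and 1 with the 6 arrays fitted alone, 2 when the probe sets of a gene were averaged and 1, 1 and 1 without Nf1-null arrays 1, 2 and 3. Of 34 cadherins and protocadherins 6 rose and 3 fell. The cadherin rises were 2, 2 and 2 without wild-type arrays 1, 2 and 3 and 7, 1 and 3 without glioma arrays 1, 2 and 3, and 3 with the 6 arrays fitted alone, 1 when the probe sets of a gene were averaged and 3 and 3 without Nf1-null arrays 1 and 3, and the falls 1, 0 and 0 without wild-type arrays 1, 2 and 3 and 2, 0 and 1 without glioma arrays 1, 2 and 3. Pcdh7 and Cdh10 had log2 differences of 1.35 ± 0.18 and 0.72 ± 0.15 (adjusted p = 0.0107 and 0.0294), and Celsr1, a cadherin of planar cell polarity, was 1527, 2174 and 1419 on the wild-type arrays and 363, 69.1 and 60.1 on the glioma stem cell arrays (log2 difference -3.86 ± 0.66, adjusted p = 0.0195). Slit2, Plxnd1 and Celsr1, at -3.48 to -3.64, 2.02 to 2.29 and -3.39 to -3.98, were not called without wild-type array 2 or 3 or glioma array 2 or 3. Cdh10 lost the call without wild-type array 1, 2 or 3 or glioma array 2 or 3, at 0.64 to 0.76. Other processing ended the calls of Pcdh7 (0.81) and Cdh10 (0.60) when the probe sets of a gene were averaged.

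Subunits of glutamate and GABA receptors differed in both directions. Gria4, a subunit of AMPA receptors, was 1499, 1434 and 1084 on the wild-type arrays and 9432, 24255 and 21556 on the glioma stem cell arrays, a log2 difference of 3.68 ± 0.37 (adjusted p = 0.00587). Gria1, another subunit of the same receptors, was 1539, 1541 and 4532 on the wild-type arrays and 217, 142 and 103 on the glioma stem cell arrays, a difference of -3.90 ± 0.52 (adjusted p = 0.0107). Both kept their calls under all 19 alternatives, in opposite directions. Gria3 and the kainate receptor subunit Grik1 had log2 differences of 2.03 ± 0.46 and 2.60 ± 0.53 (adjusted p = 0.0367 and 0.0297). In all 3 of 30 glutamate genes rose and 3 fell. Among 16 GABA genes 1 rose and 3 fell. Gabra2, a subunit of the GABA-A channel, was 142, 218 and 274 on the wild-type arrays and 2023, 4907 and 6314 on the glioma stem cell arrays (log2 difference 4.27 ± 0.53, adjusted p = 0.00918), whereas its relative Gabra4 fell (log2 difference -1.90 ± 0.38, adjusted p = 0.0278). Gabbr1, a subunit of the metabotropic GABA-B receptor, was 12059, 17849.5 and 14512 on the wild-type arrays and 1213, 1454 and 1375 on the glioma stem cell arrays, a difference of -3.44 ± 0.39 (adjusted p = 0.00756), and the astrocytic transporter Slc6a11 fell as given above. The call of Gria3 ended without wild-type array 1 or 2, Nf1-null array 1 or 2 or glioma array 2 or 3, at 1.82 to 2.03. Grik1 and Slc6a11, at 2.37 to 2.71 and -4.41 to -5.71, were not called without wild-type array 1, 2 or 3 or glioma array 2 or 3. Gabra4 lost the call without wild-type array 2 or 3 or glioma array 1, 2 or 3, at -1.65 to -2.14. Changes in processing also ended the calls of Grik1 (2.83), Gabra4 (-1.19) and Slc6a11 (-4.37) when the probe sets of a gene were averaged.

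Potassium channel genes gave 2 rises and 4 falls among 36. Kcne1l, a small accessory subunit, was 1889, 838 and 221 on the wild-type arrays and 12.5, 9.6 and 7.9 on the glioma stem cell arrays, a log2 difference of -6.03 ± 0.86 (adjusted p = 0.0124). Kcnn2, a calcium-activated channel, was 5297, 6317 and 8401 on the wild-type arrays and 1165, 742 and 638 on the glioma stem cell arrays (log2 difference -3.00 ± 0.56, adjusted p = 0.0241). The voltage-gated subunits Kcna2 and Kcnf1 had differences of -1.95 ± 0.26 and -3.13 ± 0.42 (adjusted p = 0.0107 and 0.0107). Kcne1l, at -5.90 to -6.01, was not called without wild-type array 2 or glioma array 2. Kcnn2 lost the call without wild-type array 2 or 3 or glioma array 2 or 3, at -2.82 to -3.02. Lost to other processing were the calls of Kcna2 (-0.46) and Kcnf1 (-1.39) when the probe sets of a gene were averaged.

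**Figure D4:**
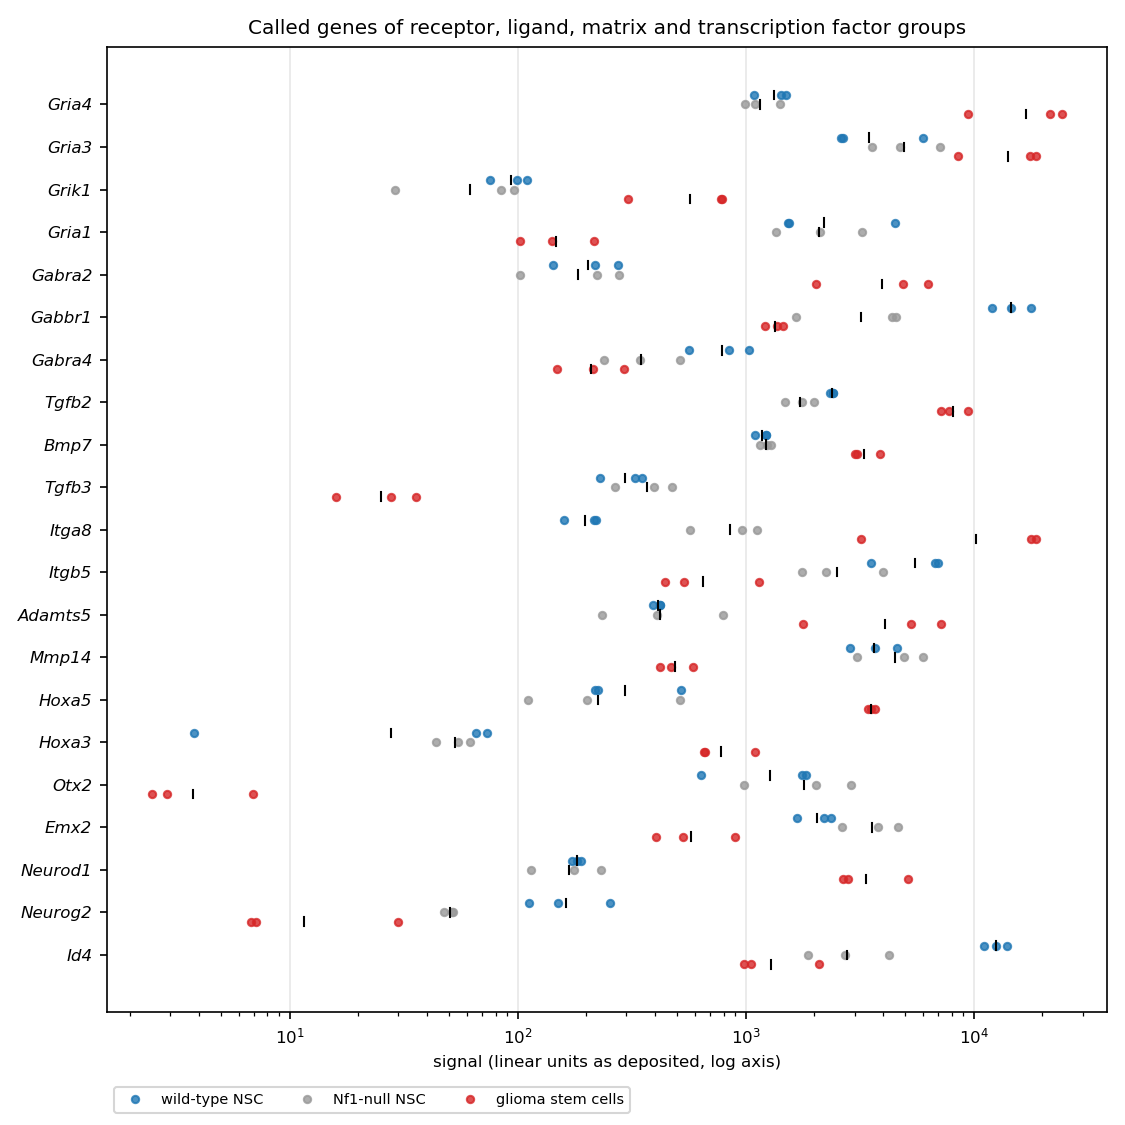
Signals on all 9 arrays (log axis, linear units as deposited) of called receptor, ligand, matrix and transcription factor genes, with wild-type NSC in blue, Nf1-null NSC in grey, glioma stem cells in red and group means of log2(signal + 1), turned back to signals, as black ticks. Gria4 and Gabra2 lie to the right of wild-type NSC in glioma stem cells, and Gria1, Gabbr1 and Gabra4 to the left. Tgfb2 and Tgfb3, and Neurod1 and Neurog2, likewise lie on opposite sides.

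ABC transporters gave 4 rises and 3 falls among 31. Abcg1, which exports cholesterol to lipoprotein particles, was 1762, 1555 and 1823 on the wild-type arrays and 7069, 16841 and 15115 on the glioma stem cell arrays, a log2 difference of 2.83 ± 0.40 (adjusted p = 0.0124). Abcg2, a drug efflux pump used to sort stem cells by dye exclusion, was 2983, 2392 and 2981 on the wild-type arrays and 6024, 7948 and 7908 on the glioma stem cell arrays (log2 difference 1.38 ± 0.19, adjusted p = 0.0109). Abcb1b, a mouse P-glycoprotein, was 176, 141 and 192 on the wild-type arrays and 534, 877 and 929.5 on the glioma stem cell arrays (log2 difference 2.16 ± 0.24, adjusted p = 0.00731), and Abca9 had a log2 difference of 1.57 ± 0.21 (adjusted p = 0.0104). Of the 2 probe sets of Abcb1b and of Abca9, 1 had the opposite sign, and neither gene was called from their mean. Abcg1 lost the call without wild-type array 2 or glioma array 2, at 2.60 to 2.76. The call of Abcg2 ended without glioma array 2, at 1.32. Also lost were the calls of Abcb1b (0.75) and Abca9 (0.68) when the probe sets of a gene were averaged. Of 32 genes of cholesterol and fatty acid synthesis and uptake 4 rose and 0 fell, or 8 rose with the arrays shifted to one median. Lpl, the lipase that frees fatty acids from lipoproteins, was 898, 1327 and 705 on the wild-type arrays and 6919, 14298 and 21507 on the glioma stem cell arrays, a log2 difference of 3.77 ± 0.44 (adjusted p = 0.00817), and was called under all 19 alternatives. The sterol synthesis enzymes Sqle and Hsd17b7 and the sterol sensor partner Insig1 had log2 differences of 0.82 ± 0.17, 1.64 ± 0.35 and 1.22 ± 0.29 (adjusted p = 0.0317, 0.0314 and 0.0429). The call of Sqle ended without wild-type array 1, 2 or 3, Nf1-null array 1 or glioma array 2 or 3, at 0.72 to 0.87. Hsd17b7, at 1.40 to 1.81, was not called without wild-type array 1, 2 or 3 or glioma array 2 or 3. Insig1 lost the call without wild-type array 2 or 3, Nf1-null array 1 or 3 or glioma array 1, 2 or 3, at 0.98 to 1.34. Changes in processing also ended the calls of Hsd17b7 (0.88) and Insig1 (1.22) when the probe sets of a gene were averaged.

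Few genes of energy metabolism were called, though the respiratory chain count moved with the scaling. Of 34 glycolysis and hypoxia genes 0 passed the limma test at the adjusted threshold, and 3 had an unadjusted p under 0.05. All 37 measured nuclear genes of the mitochondrial respiratory chain had differences above 0, but with a median of only 0.32 on the log2 scale, and 2 rose, the acyl carrier protein Ndufab1 of complex I (log2 difference 0.62 ± 0.15, adjusted p = 0.043) and Ndufa4 (log2 difference 0.54 ± 0.13, adjusted p = 0.0482). Another bright probe set of Ndufab1 had the opposite sign. With the arrays shifted to one median 8 of the 37 rose. Ndufab1, at 0.51 to 0.70, was not called without wild-type array 1, 2 or 3, Nf1-null array 1, 2 or 3 or glioma array 1, 2 or 3. Ndufa4 lost the call without wild-type array 1, 2 or 3, Nf1-null array 1, 2 or 3 or glioma array 2 or 3, at 0.48 to 0.58. Lost to other processing were the calls of Ndufab1 (0.35) and Ndufa4 (0.54) when the probe sets of a gene were averaged and Ndufa4 (0.51) after quantile normalization.

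Immune and stress genes were mixed. Of 39 interferon response and antigen presentation genes 4 rose and 4 fell. Gbp2, an interferon-induced GTPase, was 559.8, 882 and 683 on the wild-type arrays and 52.3, 65.4 and 51.7 on the glioma stem cell arrays, a log2 difference of -3.61 ± 0.20 (adjusted p = 0.00137), and the call held under the 18 alternatives that tested it. B2m, the light chain of class I molecules, rose from 16963, 15301 and 17387 to 27581, 38435 and 38018 (log2 difference 1.05 ± 0.17, adjusted p = 0.0173), while H2-K1, a class I heavy chain whose probe sets can share sequence with other class I genes, was 4379, 3556 and 5299.7 on the wild-type arrays and 1971, 2022 and 2212 on the glioma stem cell arrays (log2 difference -1.08 ± 0.17, adjusted p = 0.0173). Ifi27 rose (log2 difference 1.86 ± 0.28, adjusted p = 0.0146). Of 34 complement, cytokine and chemokine genes 2 rose and 2 fell. Cxcr4, the receptor for Cxcl12, was 3010.1, 2753 and 2159 on the wild-type arrays and 621, 289 and 263 on the glioma stem cell arrays (log2 difference -2.85 ± 0.33, adjusted p = 0.00817), and Tnfrsf12a, the TWEAK receptor, was 218, 135 and 117 on the wild-type arrays and 1195, 3364 and 2579 on the glioma stem cell arrays (log2 difference 3.84 ± 0.58, adjusted p = 0.0145). Vcam1, an adhesion molecule of stem cells and vessels, and Tnfrsf1a, a TNF receptor, had log2 differences of -1.33 ± 0.29 and 0.87 ± 0.22 (adjusted p = 0.0328 and 0.0488). B2m and Tnfrsf12a, at 0.97 to 1.00 and 3.53 to 3.76, were not called without wild-type array 2 or glioma array 2 or 3. H2-K1 lost the call without glioma array 2 or 3, at -1.06 to -1.12. The call of Ifi27 ended without wild-type array 2 or glioma array 2, at 1.75 to 1.95. Vcam1, at -1.16 to -1.47, was not called without wild-type array 1, 2 or 3 or glioma array 1, 2 or 3. Tnfrsf1a lost the call without wild-type array 1, 2 or 3, Nf1-null array 1, 2 or 3 or glioma array 2 or 3, at 0.72 to 1.00. Other processing ended the calls of H2-K1 (-0.68) and Tnfrsf1a (0.87) when the probe sets of a gene were averaged.

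Of 26 p53 targets 4 rose and 0 fell. With Cdkn1a these were the kinase Plk2, at 3308, 2662 and 1997 on the wild-type arrays and 9323, 16568 and 16254 on the glioma stem cell arrays (log2 difference 2.39 ± 0.42, adjusted p = 0.0205), the death receptor Eda2r (log2 difference 1.22 ± 0.18, adjusted p = 0.0139) and the Akt inhibitor Phlda3 (log2 difference 1.08 ± 0.21, adjusted p = 0.0278). Of 26 genes of endoplasmic reticulum stress 2 rose, Casp12 and the kinase Eif2ak3 (log2 difference 0.88 ± 0.21, adjusted p = 0.0421). Plk2 lost the call without wild-type array 2 or 3 or glioma array 2 or 3, at 2.19 to 2.40. The call of Eda2r ended without wild-type array 2 or glioma array 2 or 3, at 1.14 to 1.27. Phlda3, at 0.94 to 1.11, was not called without wild-type array 1, 2 or 3 or glioma array 2 or 3. Eif2ak3 lost the call without wild-type array 1, 2 or 3, Nf1-null array 1, 2 or 3 or glioma array 2 or 3, at 0.70 to 0.98. Also lost was the call of Eif2ak3 (0.57) when the probe sets of a gene were averaged.

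Among DNA methylation and Polycomb, imprinted and Myc network genes 8.33%, 13% and 25% were called, in lists of 24, 23 and 12 genes. Over all genes the share called was 9.11%. Of 24 DNA methylation and Polycomb genes Tet2, which oxidises methylcytosine, and Kdm6b, a demethylase of histone H3, fell (log2 differences -0.92 ± 0.17 and -0.82 ± 0.18, adjusted p = 0.0233 and 0.0334). Of 23 imprinted genes 3 fell: Cdkn1c, Peg3 at 32290.1, 24662 and 29536 on the wild-type arrays and 11092, 6838 and 3926 on the glioma stem cell arrays (log2 difference -2.10 ± 0.35, adjusted p = 0.018) and Nnat at 13333, 22336 and 7353 on the wild-type arrays and 5419, 1666 and 1733 on the glioma stem cell arrays (log2 difference -2.38 ± 0.56, adjusted p = 0.0421). Of 12 Myc network genes the Max partners Mxi1 and Mxd1 fell and Mxd3 rose (log2 differences -1.64 ± 0.30, -1.40 ± 0.31 and 1.76 ± 0.40, adjusted p = 0.0224, 0.0358 and 0.0365). Myc, named after its values were seen, was 3769, 4795 and 2192 on the wild-type arrays and 4663, 4005 and 3714 on the glioma stem cell arrays, with overlap. The call of Tet2 ended without wild-type array 1, 2 or 3 or glioma array 2 or 3, at -0.88 to -0.94. Kdm6b, at -0.72 to -0.88, was not called without wild-type array 1, 2 or 3, Nf1-null array 3 or glioma array 2 or 3. Peg3 lost the call without wild-type array 2 or 3 or glioma array 2, at -2.08 to -2.21. The call of Nnat ended without wild-type array 1, 2 or 3, Nf1-null array 1, 2 or 3 or glioma array 2 or 3, at -1.98 to -2.79. Mxi1, at -1.48 to -1.66, was not called without wild-type array 2 or 3 or glioma array 2 or 3. Mxd1 lost the call without wild-type array 1, 2 or 3, Nf1-null array 1 or glioma array 1, 2 or 3, at -1.31 to -1.48. The call of Mxd3 ended without wild-type array 1, 2 or 3 or glioma array 1, 2 or 3, at 1.46 to 1.95. Changes in processing also ended the calls of Kdm6b (-0.68) and Nnat (-2.24) with the arrays shifted to one median and Kdm6b (-0.87) and Nnat (-2.38) when the probe sets of a gene were averaged.

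Within the glioma stem cells, array 1 stood between arrays 2 and 3 and the wild-type NSC. For 983 of the 1658 called genes (59.3%) array 1 was the glioma stem cell array nearest to the wild-type mean, against 20.0% for array 2 and 20.7% for array 3. Median distances of the called genes from the wild-type mean were 1.26, 1.56 and 1.57 on the log2 scale for arrays 1, 2 and 3. The gap was not the same for each group of genes. On the replication and mitosis lists array 1 lay farther from wild-type than arrays 2 and 3, and on the astrocyte and ERK lists it lay nearer.

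At least 8-fold apart from both other glioma stem cell arrays were 10 genes lower and 5 genes higher on array 1, out of those with a signal of 500 or more on the higher side. Lower on array 1 were Mbp, Apod and Gpnmb, a melanosome and macrophage glycoprotein, at 92.9 on array 1 against 1702 and 844, and the lymphatic growth factor receptor Flt4, at 104 against 1122 and 1015. Higher on array 1 were Igfbp5 and Pla2g7, a lipoprotein phospholipase, at 14123 on array 1 against 1032 and 613, and the Wnt inhibitor Apcdd1, at 3886 against 351 and 383. Pla2g7 and Apcdd1 on array 1 were near the wild-type range of 16419 to 45934 and 4623 to 9899. These genes were picked for this spread and are given as values only.

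**Figure D5:**
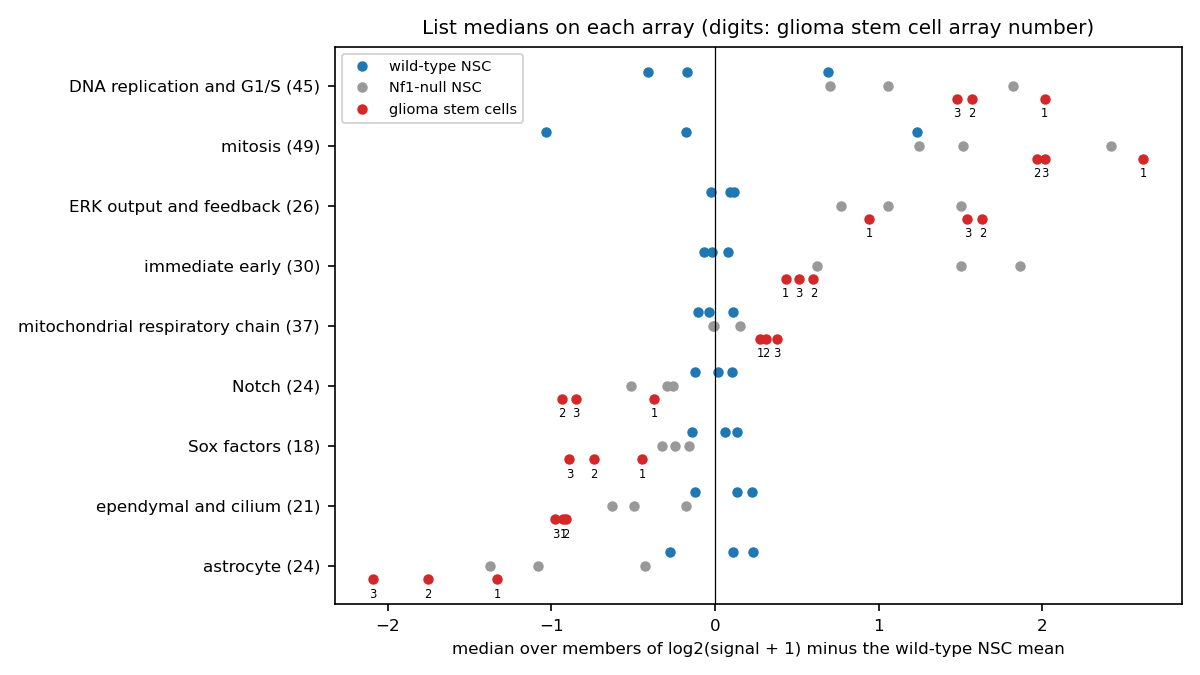
Median over the members of 9 gene lists of log2(signal + 1) minus the wild-type NSC mean (x axis), 1 point per array, with wild-type NSC in blue, Nf1-null NSC in grey and glioma stem cells in red, and with the number of each glioma stem cell array below its point. Array 1 is the rightmost red point for replication and mitosis and the leftmost for ERK output, where it stands at 0.94 against 1.63 and 1.54.

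The Nf1-null NSC are set beside these values as a description. They share the wild-type arrays as their control, so the 2 differences are not independent. Of the 631 genes that rose in glioma stem cells, the Nf1-null mean lay between the other means and nearer the glioma stem cells for 331 (52.5%), between and nearer wild-type for 199 (31.5%), beyond the glioma stem cells for 37 and on the far side of wild-type for 64. Of the 1027 that fell, it lay nearer the glioma stem cells for 378 (36.8%), nearer wild-type for 504 (49.1%), beyond the glioma stem cells for 35 and on the far side of wild-type for 110. Among genes not called, it lay between and nearer the glioma stem cells for 20.5% and between and nearer wild-type for 19.6%. It lay beyond the glioma stem cells for 30.9% of them and on the far side of wild-type for 29.0%. Called genes were selected for a gap between the outer groups, which makes a place between them likelier. Akap12 was 7686, 17338 and 4897 on the Nf1-null arrays, Dusp4 1133, 4591 and 1305 and Spry4 3249, 8146 and 3736, values that lay between the groups or within the glioma stem cell range. Neurod1 was 232, 114 and 177, Gabra2 102, 277 and 222 and Hoxa3 61.6, 44 and 54.6, within or near the wild-type range. Aldh1l1 was 31921, 25833 and 40853 and Otx2 985, 2887 and 2032, also near wild-type, whereas Aqp4, at 8139, 1734 and 5382, lay below it. Fbln2 was 26285, 36383 and 29166, above wild-type, while glioma stem cells were far below.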

How the data were processed

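RNA of 9 cultures was measured on Affymetrix Mouse Genome 430 2.0 arrays. The authors deposited one linear intensity per probe set and array, and the sources used here do not name the tool behind it. The mean intensity of each array was 1500.01 without the lowest and highest 2%, so a difference in total RNA between samples is not kept. Detection calls were not used here, and the number of arrays, 3 a group, limits the precision.

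Of 45101 probe sets, 34945 had 1 gene symbol in the platform annotation, 932 several, 9160 none and 64 were controls. The brightest probe set by mean over the 9 arrays stood for each of 18193 genes, of which 9010 had several. Tests ran on log2(value + 1), on which fold changes of dim genes depend on the pseudocount. Means of the 3 groups were fitted to all 9 arrays by limma 3.58.1 under R 4.3.3, and variances were moderated by empirical Bayes (6 residual and 1.62 prior degrees of freedom). The contrast of glioma stem cells minus wild-type NSC was tested two-sidedly, and genes were called at p under 0.05 after Benjamini-Hochberg adjustment over all genes. The scripts were tested on simulated data.

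Genes were named by a rule. It took the 15 largest rises and 15 largest falls among called genes whose groups did not overlap and whose 3 arrays of the higher group reached 500, the called members of each of 46 lists, at most 4 by adjusted p (1187 of 1266 genes measured), and always Nf1, Aldh1l1, Pdgfra, Olig2, Sox10, Mbp, Sox2, Nes and Fabp7. Unnamed clones and gene models, olfactory and vomeronasal receptors, small RNAs and immunoglobulin or T cell receptor segments stayed out. Gfap, S100b, Pecam1, Cdc6, Mcm5, Mcm6, Mki67, Egfr, Myc, the sex-linked genes, and the genes apart on glioma stem cell array 1 were named outside it, after their values were seen. The comparison, the lists and the rule were chosen with earlier results of these data known. Alternatives were 2 other normalizations, the mean of all probe sets, 2 filters on dim genes, a pseudocount of 16, a mean-variance trend, an ordinary linear model, the 6 arrays alone, a block for the replicate number, and each array left out in turn. Promoter windows came from RefSeq (GRCm38.p6) and were matched by symbol for 14433 genes.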

Additional observations from a re-analysis of the deposited data

How the results depend on the processing

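No gene named by rule changed direction under the 19 alternatives, while the number of calls changed with most of them. Among all 1658 called genes, 17 changed direction with the mean of all probe sets, and 957 kept their call there. Against 1658 calls in all, there were 1083 with the mean of all probe sets, 1078 with the 6 arrays fitted alone, 2498 over the brighter 13645 genes and 2700 with a mean-variance trend. Against 631 genes called higher, there were 419 with the 6 arrays alone, 995 over the brighter 13645 genes, 1040 over the brighter 9097 and 1130 with a trend. Against 1027 called lower, there were 613 with the mean of all probe sets, 659 with the 6 arrays alone and 1570 with a trend. The filters test fewer genes and the 6 arrays leave fewer degrees of freedom; the cause of the other changes was not tested. Leaving out 1 array at a time gave 239 to 1774 calls, 77 to 707 higher and 140 to 1067 lower. The replicate number as a block gave 1553 calls, 729 higher and 824 lower, of which 1213 were among the 1658. Under it 37 replication genes rose in place of 24 and 39 mitosis genes in place of 14, and Nf1 was not called (-0.78, adjusted p = 0.0782). Deviations of same-numbered glioma stem cell and wild-type arrays correlated at 0.24, 0.05 and 0.20 over the same 9097 genes. No label states a pairing of these arrays, and the main model did not pair them. Deviations of same-numbered Nf1-null and wild-type NSC arrays correlated at 0.64, 0.24 and 0.58. Xist was 588 on wild-type array 3, 386 on Nf1-null array 3 and at least 30974.5 on every other array. The numbers may thus tie the NSC cultures, while the main model treated all arrays as independent. On the mitosis list array 1 had the highest median in each of the 3 groups. Against the wild-type mean it was 1.23 in wild-type NSC, 2.42 in Nf1-null NSC and 2.62 in glioma stem cells. The same held on the replication list, at 0.69, 1.82 and 2.01. Whether the numbers tie the glioma stem cell arrays to the NSC arrays was not tested. Of 569 called genes with several bright probe sets, 531 had all of them on one side. In the dimmest of 4 brightness groups the pooled SD was 1.13 on the log2 scale, against 0.20 in the brightest, which limits what can be called among dim genes.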
